A study of Mus musculus with 8 samples.

Results

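The 10 feedback regulators of cytokine signalling described here, the SOCS family genes Socs1 to Socs7 and Cish and the PIM kinase genes Pim1 and Pim3, were followed in mouse macrophages given hepcidin. They were taken by name as the genes whose Entrez number is a probe set number of the deposited table. All 10 were found among 24011 genes with a value, and none was removed by a filter. The cells were primary bone marrow-derived macrophages of WT mice aged 8 to 10 weeks, grown for 7 days with M-CSF from L cell-conditioned medium, seeded at 150000 cells a well and lysed in Trizol. A group of 4 samples had received hepcidin at 10 µg/ml for 1 h, and another group of 4 had received PBS. This hormone of the liver controls iron release from cells by binding ferroportin. The comparison asked which genes differ in macrophages within 1 h of hepcidin. Samples are numbered 1 to 4 in each group, and the labels do not say whether a number stands for a mouse, a culture or a day, so p-values cover no more than the spread between these samples, possibly a technical one.

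SOCS proteins are negative regulators of signalling. Cish and Socs1 to Socs3 are known for feedback, in which cytokines acting through JAK kinases and STAT factors switch these genes on. Their proteins then bind the receptor or the kinase and shut the signal off. Each SOCS protein carries an SH2 domain, which docks on phosphotyrosine, and a SOCS box, which recruits a Cullin-5 ubiquitin ligase. PIM kinases are serine/threonine kinases without a known activation step, so that their activity follows their amount, and STAT factors and NF-kB are known to induce Pim1. In macrophages Socs3 is known for restraining IL-6 signalling through gp130 and Socs1 for restraining interferon-gamma and Toll-like receptor signalling.

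The promoters of Pim1, Socs3 and Cish are shown because Pim1 and Socs3 had the largest differences among the members, while Cish, a classical STAT5 target, had none beyond the spread between arrays. The RefSeq table (GRCm38.p6) held windows of 250 bases before to 50 bases after the start for 6 of the 10 members, 7 windows in all, Pim1 having 2. Searched were the STAT motif TTCNNNGAA, the AP-1 motif TGANTCA, the cAMP response element TGACGTCA and the NF-kB consensus, each on both strands, and the TATA motif TATAAA on the strand of the gene. Capitals mark matches, and all 3 matches in these windows were to the STAT motif. None of the matches overlapped another.
Socs3, chr11:117969317-117969616, minus strand: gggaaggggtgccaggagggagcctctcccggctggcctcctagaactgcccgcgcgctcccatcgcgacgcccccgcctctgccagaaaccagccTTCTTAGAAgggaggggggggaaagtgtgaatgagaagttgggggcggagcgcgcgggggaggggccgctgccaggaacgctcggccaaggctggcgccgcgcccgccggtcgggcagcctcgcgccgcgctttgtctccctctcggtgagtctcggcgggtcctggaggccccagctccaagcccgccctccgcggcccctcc
Cish, chr9:107296409-107296708, plus strand: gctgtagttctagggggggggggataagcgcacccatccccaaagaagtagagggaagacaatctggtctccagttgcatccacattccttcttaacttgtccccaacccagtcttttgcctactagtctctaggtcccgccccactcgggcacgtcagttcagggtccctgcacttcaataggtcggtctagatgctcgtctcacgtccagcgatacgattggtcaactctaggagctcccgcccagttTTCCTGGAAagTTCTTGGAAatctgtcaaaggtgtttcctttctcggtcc
Pim1, first start, chr17:29490535-29490834, plus strand: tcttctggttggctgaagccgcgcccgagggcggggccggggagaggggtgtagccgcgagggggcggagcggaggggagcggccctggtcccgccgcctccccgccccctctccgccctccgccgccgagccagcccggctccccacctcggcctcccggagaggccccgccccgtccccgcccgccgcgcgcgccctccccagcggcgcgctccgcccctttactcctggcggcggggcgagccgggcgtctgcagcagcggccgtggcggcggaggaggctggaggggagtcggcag
The Socs3 window held 1 match, TTCTTAGAA, 154 to 146 bases before the start. The RefSeq gene of Socs3 reaches to base 117970336, upstream of this window, so the start used lies inside the annotated gene. The Cish window held 2, TTCCTGGAA at bases 1 to 9 and TTCTTGGAA at bases 12 to 20 counted from the start as base 1. Neither Pim1 window, nor those of Socs1, Socs4 and Pim3, held a match to any of the 5 motifs, which says only that these letters are absent from these windows. Among 32851 windows of this length 8.30% held the STAT motif, 4.51% the NF-kB consensus, 7.81% the AP-1 motif, 1.79% the cAMP response element and 8.32% the TATA motif. The first Pim1 window and the Socs3 window were rich in G and C, at 81.3% and 73.3%, beside a median of 52.7% over all windows.

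The deposited values are log2 intensities after RMA, so a difference of 1 is a ratio of 2, and ratios of dim genes are understated on this scale. Of 9 markers fixed for macrophages 8 were measured, with mean levels from 8.34 for Mertk to 13.1 for Cd68. Lyz2 is not analysed here. The 9 measured markers of T and NK cells, which should be absent, lay between 3.34 and 4.77 and give a rough measure of background. The other lists of cell types that the culture could hold averaged, on hepcidin and PBS arrays, 4.82 and 4.90 for 8 dendritic cell markers, 5.28 and 5.29 for 6 B cell markers and 5.26 and 5.23 for 7 endothelial markers. The 8 fibroblast markers averaged 4.61 and 4.58, the 7 of mast cells and basophils 3.95 and 3.95, and the 4 of erythroid cells 3.96 and 3.97. Single genes spread widely around these averages. The B cell list ran from 3.21 (Ms4a1) to 9.52 (Blnk) and the dendritic list from 3.68 (Clec9a) to 8.44 (Itgax). The endothelial list ran from 3.40 (Tek) to 7.51 (Kdr) and the mast cell and basophil list from 2.22 (Mcpt4) to 6.36 (Kit). The fibroblast list ran from 2.89 (Lum) to 5.74 (Col1a1). Cish, at a mean level of 4.18, and Socs2, at 4.60, lay within the background range of the T and NK cell markers. Socs1 and Socs3, at mean levels of 5.48 and 5.46, lay above that range but under the highest fibroblast marker. Probe sets differ in response, so the members' levels are not ranked against each other.

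Of the 10 members, Pim1 and Socs3 were higher on every hepcidin array than on any PBS array, and the other 8 members showed no such separation. After adjustment over the 24011 genes, limma called none of them at 0.05, a background of 0%, and therefore no member, while 319 genes were higher and 367 lower at an unadjusted p under 0.05. With the replicate number as a block 1 gene passed, or 0.00416%, and it was no member. At that unadjusted threshold limma counted Pim1 and Socs3 as higher, against 1.33% of all genes, and 0 members as lower, against 1.53%. With the replicate block the counts were again Pim1 and Socs3 higher, against 2.34%, and 0 lower, against 2.57%. Groups did not overlap, with hepcidin higher, for these 2 members and for 0.845% of all genes. Pim1, Socs3 and Socs2 were higher in all 4 same-number pairs, as were 5.69% of all genes, and 0 members were lower in all pairs, as were 5.95%. The mean difference was above 0 for 5 of 10 members, against 50.4% of all genes. The members' median difference was -0.0062 on the log2 scale, against 0.00095 over all genes, with members on both sides of 0.

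**Figure D1:**
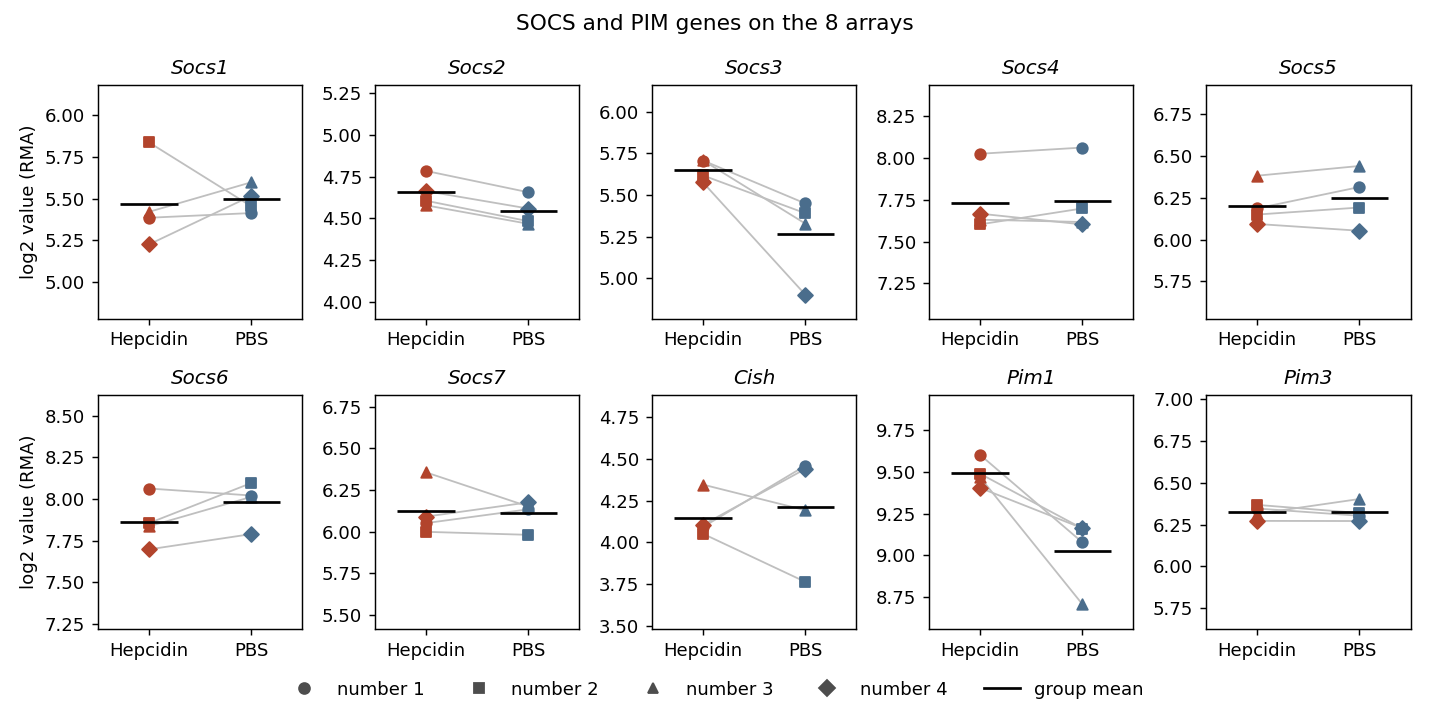
Log2 values (vertical axis, a span of the same height in each panel) of the 10 members on the hepcidin arrays, left, and the PBS arrays, right. Each point is an array, grey lines join arrays with the same number, and black bars are group means (n = 4). Only in the panels of Pim1 and Socs3 do all hepcidin points lie above all PBS points.

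Pim1 encodes the serine/threonine kinase that gave the family its name and that promotes survival and growth. It stood at 9.60, 9.49, 9.47 and 9.40 on the hepcidin arrays numbered 1 to 4, against 9.08, 9.16, 8.71 and 9.16 on the PBS arrays. The lowest hepcidin value lay above the highest PBS value, and PBS array 3 was the lowest of all 8. The means were 9.49 ± 0.08 with hepcidin and 9.03 ± 0.22 with PBS (SD, n = 4 each), a ratio of 1.38 with a 95% interval from 1.16 to 1.64 in limma. By pair the ratios were 1.44, 1.26, 1.69 and 1.18. In limma the log2 difference of 0.46 ± 0.11 (SE) had an unadjusted p of 0.00198, rank 30 among 24011 genes, and an adjusted p of 1.00. With the replicate block the adjusted p in limma was 0.704. The exact permutation test over the 70 splits of the 8 arrays gave p = 0.0286 (two-sided), the smallest it can give. Groups that do not overlap always give that value, so it restates the separation, and the splits ignore the pairing by number. Flipping the signs of the 4 pair differences gave an exact p of 0.125, likewise the smallest that design allows. Without PBS array 3 the log2 difference was 0.36, and without both arrays numbered 1 it was 0.44.

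Socs3 encodes the SOCS protein that binds gp130 and inhibits the JAK kinases attached to it. Its values were 5.71, 5.62, 5.71 and 5.58 on the hepcidin arrays, against 5.45, 5.39, 5.33 and 4.90 on the PBS arrays. The hepcidin arrays lay close together, and most of the spread was among the PBS arrays, where number 4 was low. That value was not far above 4.77, the highest mean of the T and NK cell markers. The ratios of this dim gene may therefore be understated, and their interval does not bound the true ratio. Means were 5.65 ± 0.07 with hepcidin and 5.27 ± 0.25 with PBS (SD, n = 4 each), a ratio of 1.30 with a 95% interval from 1.08 to 1.57. The pair ratios were 1.20, 1.17, 1.30 and 1.59, the highest in the pair with the low PBS array. In limma the log2 difference of 0.38 ± 0.12 (SE) had an unadjusted p of 0.00937, rank 123, and an adjusted p of 1.00, or 0.784 with the replicate block. The exact permutation test over 70 splits, again without the pairing, gave p = 0.0286, the value fixed by the separation. The exact sign-flip test gave p = 0.125, and each is the smallest possible. Without PBS array 4 the log2 difference was 0.26, and without both arrays numbered 1 it was 0.43.

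Socs1 encodes the close relative of Socs3 that blocks JAK kinases directly through a kinase inhibitory region. It stood at 5.39, 5.84, 5.42 and 5.23 on the hepcidin arrays, against 5.41, 5.45, 5.60 and 5.52 on the PBS arrays. The hepcidin array numbered 2 was the highest of all 8 and number 4 the lowest, so the groups overlapped in full. The log2 difference was -0.03 with a 95% interval from -0.31 to 0.25 in limma, and 1 of 4 pairs was higher. With a mean level of 5.48, Socs1 was about as dim as Socs3, at 5.46. Its ratios may likewise be understated, and the interval does not bound the true ratio. The difference of Socs3 exceeded that of Socs1 by a mean of 0.41 on the log2 scale, with pairs from -0.16 to 0.96. That contrast was picked with the values known and was not tested.

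Cish and Socs2 are feedback genes of STAT5, induced by growth hormone and by cytokines such as GM-CSF. Cish, whose start carries the 2 STAT motifs printed above, had values of 4.09, 4.05, 4.35 and 4.10 with hepcidin, against 4.46, 3.76, 4.19 and 4.44 with PBS. Pairs 2 and 3 were higher and pairs 1 and 4 lower, at a level within the background range. The log2 difference was -0.07, with a 95% interval from -0.40 to 0.27, the widest among the members. Socs2, the inhibitor of growth hormone signalling, stood at 4.78, 4.61, 4.58 and 4.66 with hepcidin, against 4.66, 4.48, 4.47 and 4.56 with PBS. The 4 pairs differed by 0.13, 0.12, 0.11 and 0.10 on the log2 scale, nearly alike, but the groups overlapped because arrays numbered 1 were high in both. The ratio was 1.08 with a 95% interval from 0.955 to 1.23, and limma gave an unadjusted p of 0.186, or 0.123 with the replicate block. The exact permutation test gave p = 0.114 over 70 splits and 0.125 over sign flips.

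**Figure D2:**
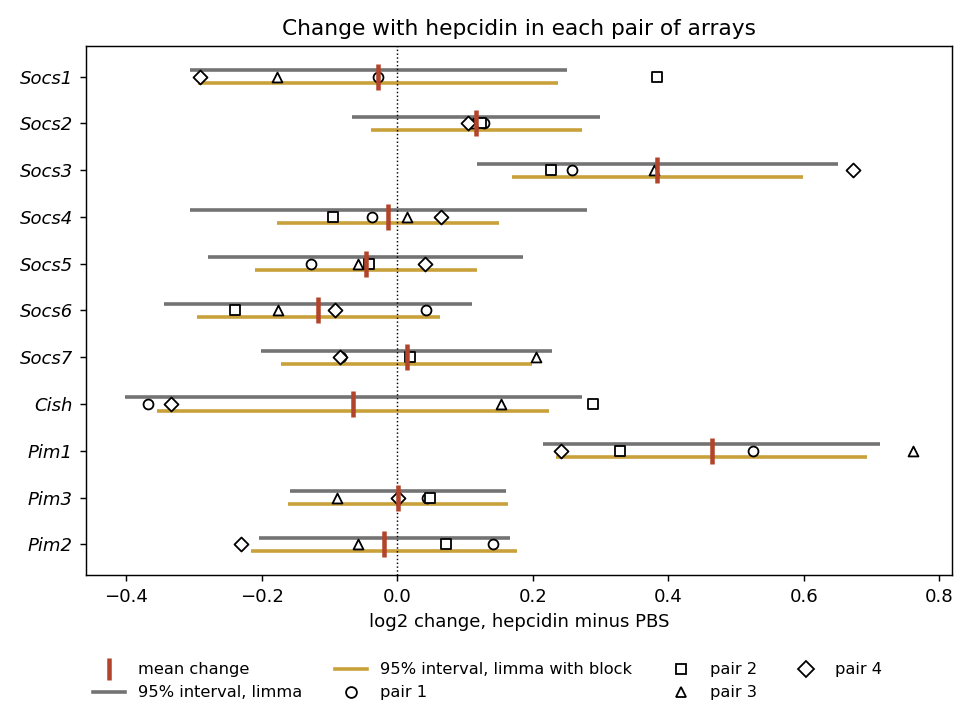
Log2 change, hepcidin minus PBS (horizontal axis), of the 10 members and of Pim2. Open symbols are the 4 pairs of arrays with the same number, red bars are mean changes, and lines are 95% intervals from limma without (grey) and with (yellow) the replicate block. The intervals of Pim1 and Socs3 lie above 0 and those of the others include 0.

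Socs4 and Socs5 form a subfamily with a long amino-terminal region and are known for acting on the EGF receptor. Socs4 stood at 8.03, 7.60, 7.63 and 7.67 on the hepcidin arrays, against 8.06, 7.70, 7.62 and 7.60 on the PBS arrays. Both arrays numbered 1 were high, and the other 6 lay between 7.60 and 7.70, whatever the treatment. The log2 difference was -0.01 (95% interval -0.31 to 0.28 in limma, narrowing to -0.18 to 0.15 with the replicate block). The same arrays numbered 1 were low in the 12 marker genes of neutrophils and their precursors, with a mean level of 4.73 with hepcidin and 4.90 with PBS, against 5.79 to 6.20 on the other hepcidin arrays and 5.83 to 6.21 on the other PBS arrays. Mean levels of these 12 genes ran from 3.52 for Camp to 8.91 for Mmp8, and no marker is at 0 on this scale. The macrophage markers averaged 11.04 and 10.91 on the hepcidin and PBS arrays numbered 1, against 11.37 to 11.48 on the other hepcidin arrays and 11.33 to 11.48 on the other PBS arrays. Of these genes Fcgr1 varied most, with SDs of 0.87 with hepcidin and 1.12 with PBS. The next largest SD was 0.35, for Mertk with PBS, and the share of Fcgr1 in the lower average was not tested. In total RNA, fewer cells of a type and less RNA per cell cannot be told apart, and the part of these markers in the Socs4 level was not tested. Socs5 ranged from 6.09 to 6.38 with hepcidin, against 6.05 to 6.44 with PBS, and both arrays numbered 3 were the highest of their group. Its log2 difference was -0.05 (95% interval -0.28 to 0.19).

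Socs6 and Socs7 form another subfamily, known for binding insulin receptor signalling proteins and, for Socs6, the receptor kinase KIT. Socs6 stood at 8.06, 7.86, 7.84 and 7.70 with hepcidin, against 8.02, 8.10, 8.01 and 7.79 with PBS. It was lower in 3 of 4 pairs, with overlapping groups and a log2 difference of -0.12 (95% interval -0.34 to 0.11 in limma, unadjusted p 0.279, and 0.171 with the replicate block), the lowest among the members. Socs7 ranged from 5.999 to 6.36 with hepcidin, against 5.98 to 6.18 with PBS, and its difference of 0.01 had an interval from -0.20 to 0.23. Hepcidin array 3 was the highest for Socs7.

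Pim3, a kinase similar to Pim1 in sequence and substrates, had the smallest SD of the members in both groups. Its values were 6.35, 6.37, 6.31 and 6.27 with hepcidin, against 6.30, 6.32, 6.40 and 6.27 with PBS. The ratio was 1.00 with a 95% interval from 0.896 to 1.12, which leaves out the 1.38 of Pim1. The Pim1 difference exceeded that of Pim3 by 0.24 to 0.85 in the 4 pairs, a contrast that was picked with the values known and was not tested. Pim2, the PIM gene outside the 10, ranged from 5.77 to 5.93 with hepcidin, against 5.76 to 6.003 with PBS. Its difference was -0.02 (95% interval -0.20 to 0.17), with 2 of 4 pairs higher.

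Around the members, genes of the JAK-STAT pathway lay near 0 in most lists. No gene passed over all genes in limma in any list, and with the replicate block 1 did, among early NF-kB targets. Of 10 measured JAK and STAT genes, 6 were higher and the median log2 difference was 0.05, with 0 at an unadjusted p under 0.05. Jak3, the kinase of the common gamma chain, averaged 6.24 ± 0.13 on hepcidin arrays and 6.08 ± 0.33 on PBS arrays (SD, n = 4 each), and Stat5b, a transducer of growth hormone signals, at 7.80 ± 0.18 and 7.71 ± 0.09 with hepcidin and PBS. Of 21 receptor chains 15 were higher, with a median of 0.04 and 0 at an unadjusted p under 0.05, or 1 with the block. That gene was Il10ra, which encodes the ligand-binding chain of the IL-10 receptor, a receptor that signals through STAT3. It stood at 7.91, 8.21, 8.40 and 8.31 on the hepcidin arrays, against 7.32, 8.01, 8.13 and 7.99 on the PBS arrays, higher in 4 of 4 pairs. Arrays numbered 1 were the lowest of both groups, and limma gave an unadjusted p of 0.0808 without and 0.00401 with the replicate block, where the adjusted p was 0.784. Ifngr2, the signalling chain of the interferon-gamma receptor, differed by 0.14 ± 0.09 (SE).

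Of 18 genes of cytokines that signal through JAKs, 10 were higher, with a median of 0.03 and 1 at an unadjusted p under 0.05, Il27. This gene, for a subunit of the cytokine IL-27, averaged 6.76 ± 0.13 on hepcidin arrays and 6.46 ± 0.16 on PBS arrays (SD, n = 4 each) and was higher in 4 of 4 pairs. Ifnb1, the interferon-beta gene, differed by 0.15 ± 0.08 (SE) at a mean level of 3.10, below the background range. The other inhibitors of JAK-STAT signalling, phosphatases, PIAS proteins and adaptors, held 6 higher of 12 with a median of -0.0012. The tyrosine phosphatase genes Ptpn11 and Ptpn6 differed by 0.07 ± 0.08 and 0.07 ± 0.13 (SE). The list of 5 Cullin ligase genes, which holds parts that SOCS boxes recruit, had 2 higher and a median of -0.02. Eloc differed by -0.13 ± 0.14 and Rbx1, a ring protein gene of Cullin ligases in general, by 0.10 ± 0.18. None of these lists had a gene at an unadjusted p under 0.05 apart from Il27.

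Among 20 STAT3 target genes that are no members, 17 were higher, the median was 0.11, 5 were higher at an unadjusted p under 0.05 and 8 were higher in 4 of 4 pairs. The matching shares of all genes given above are 50.4% with a mean difference above 0, 1.33% and 5.69%. The list was chosen with earlier results of these data known, so its counts are a description and were not tested against these shares. This list and the list of early NF-kB targets below overlap among the genes at that unadjusted threshold, so their counts are not separate results. Bcl3, an atypical IκB protein gene that is also an NF-kB target, stood at 7.94, 7.30, 8.12 and 7.56 with hepcidin, against 7.27, 7.04, 6.82 and 7.36 with PBS. Its pair differences ran from 0.20 to 1.30, the highest in pair 3, as for Pim1. Junb, an AP-1 subunit gene, averaged 8.43 ± 0.19 on hepcidin arrays and 8.00 ± 0.27 on PBS arrays (SD, n = 4 each), and limma gave an unadjusted p of 0.0132, or 0.00045 with the replicate block. The 11 STAT5 targets had 7 higher and a median of 0.01, with 0 at an unadjusted p under 0.05. Mcl1, a survival factor gene of both lists, differed by 0.15 ± 0.07 without overlap of the groups, and Gfi1, a transcriptional repressor gene, by -0.06 ± 0.12 (SE).

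The genes of 12 PIM substrates had 8 higher, a median of 0.05 and 0 at an unadjusted p under 0.05, with the forkhead factor genes Foxo3 at 0.13 ± 0.11 and Foxo1 at -0.11 ± 0.12. For comparison, 12 of 12 early NF-kB targets were higher, against 50.4% of all genes, with a median of 0.76. At an unadjusted p under 0.05 in limma 11 were higher, or 12 with the replicate block, against 1.33% and 2.34% of all genes. Changes in the list ran from 0.34 to 2.25 on the log2 scale, the lowest below the 0.46 of Pim1 and 0.38 of Socs3. Its 2 genes with the smallest unadjusted p were Tnf, at a ratio of 2.42, and Nfkbiz, an IκB family gene, at 2.36. Both ratios lay above the upper limit of 1.64 for Pim1. This list was chosen with its direction known.

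**Figure D3:**
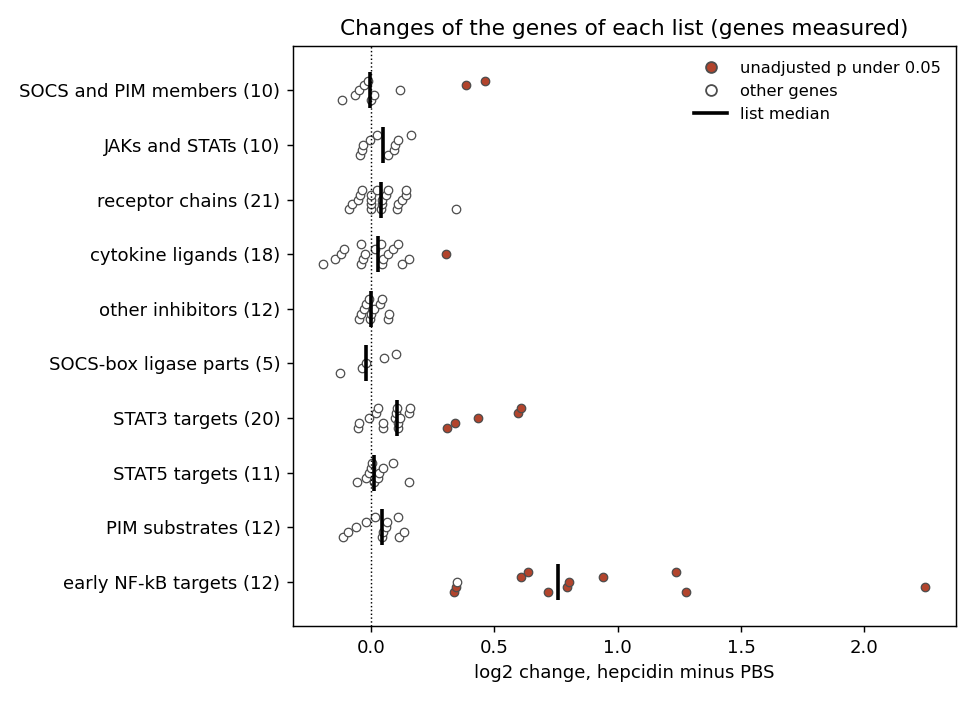
Log2 change, hepcidin minus PBS (horizontal axis), of every measured gene of 10 lists, with the number measured in brackets. Filled points have an unadjusted p under 0.05 in limma, and black bars are list medians. The members' median lies at -0.0062, with Pim1 and Socs3 to the right of the other 8.

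Among 8936 other named genes whose mean level reached 6, those closest to Pim1 over the 8 arrays were Gadd45b, a stress-response gene, Map3k8, a kinase gene of Toll-like receptor signalling, and Tnip1, a gene for a partner of the NF-kB inhibitor A20. The measure was the root mean square difference of log2 values, each gene centred on its own mean, and it was 0.11, 0.14 and 0.15 for the 3, beside 0.27 for the spread of Pim1 around its own mean. All 3 had their lowest value on PBS array 3, as Pim1 had, and differences between groups of 0.35, 0.36 and 0.35. For Socs4 the closest were Ttc17, Dnajc21 and Dlg1, at 0.024 to 0.033 beside a spread of 0.18, and these too were highest on both arrays numbered 1. The closest to Socs5 were Pcbd2, Arf4 and Mplkip (0.041 to 0.051 beside 0.13), to Socs6 Efr3a, Fuca2 and Cyth2 (0.030 to 0.053 beside 0.14), to Socs7 Elf4, Mcm8 and Coa6 (0.041 to 0.050 beside 0.11) and to Pim3 Actr8, Safb and Cers5 (0.020 to 0.025 beside 0.043). These genes were chosen for their likeness over all 8 arrays, so their differences between groups follow those of the member and are a description, with no test. Socs1, Socs2, Socs3 and Cish lay below a mean of 6 and were not matched.

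**Figure D4:**
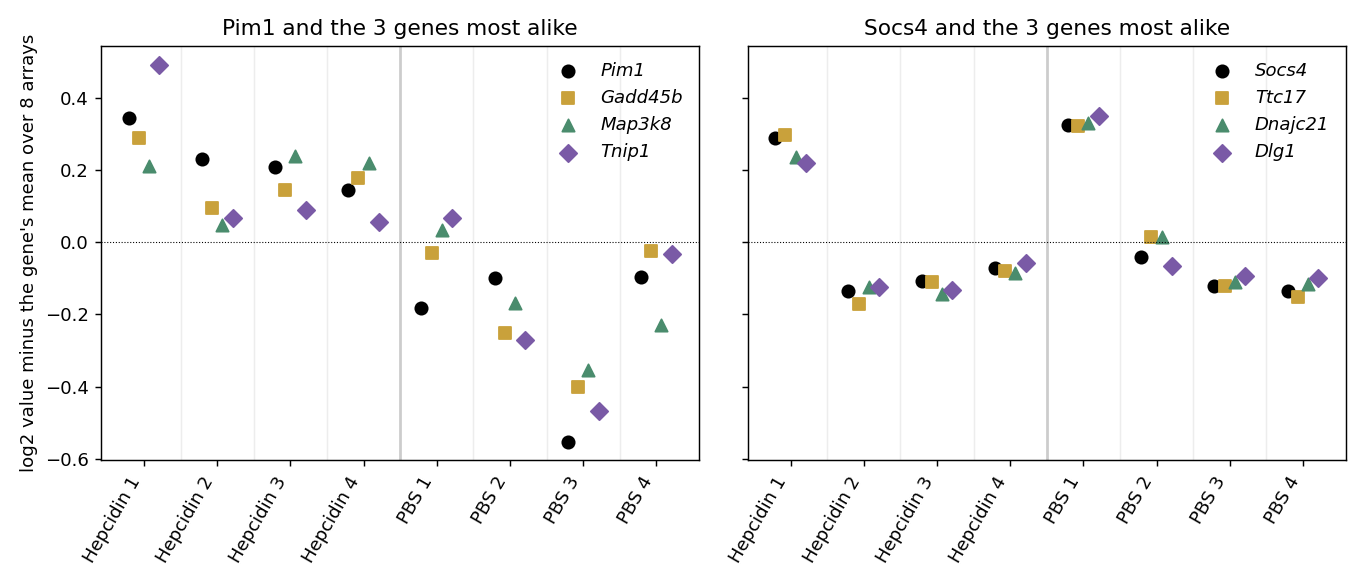
Log2 value minus the gene's own mean over the 8 arrays (vertical axis) on each array (horizontal axis, hepcidin left and PBS right), for Pim1 and the 3 genes most alike (left) and for Socs4 and the 3 genes most alike (right). Pim1 separates hepcidin from PBS arrays, with its low point on PBS array 3, and Socs4 separates arrays numbered 1 from the other 6.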

How the data were processed

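Total RNA from 8 samples was made into biotinylated cDNA for Affymetrix whole-transcript arrays, per the labels' protocols. As deposited, values are log2 intensities, and the submitters' processing notes name RMA and the package affy, version 1.36.1. They ran from 1.73 to 13.6. RMA by its usual definition corrects background, gives the arrays a common distribution and summarises probes. The sources used here name neither the probe set definition nor a genome build. The values were used as deposited, and 0 columns belonged to no sample. Of 24973 probe sets, 24015 had exactly 1 gene symbol in the platform annotation, 0 several and 958 none. The brightest probe set per symbol was kept, which left 24011 genes, unfiltered, and 23922 probe sets matched RefSeq names (GRCm38.p6). Array medians lay between 4.87 and 4.95.

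Hepcidin minus PBS was tested with limma 3.58.1 in R 4.3.3 (lmFit, eBayes), with Benjamini-Hochberg adjustment over all genes and a threshold of 0.05. The code was tested on simulated data. Levels are means ± SD and differences are ± SE of this fit. Exact permutation tests of single members were two-sided. Across genes, deviations from group means correlated (0.344 to 0.548) where 2 arrays shared a number, and others gave -0.356 to 0.124, so equal numbers were taken as pairs. The members and gene lists were chosen with earlier results of these data known. The rule for named genes took the 10 members, Pim2, the 2 genes with the smallest unadjusted p and any past the threshold in each of 9 pathway lists, and the 3 genes most alike in pattern to each member with a mean level of at least 6, without predicted genes. The 20 alternatives concerned normalization, filters, probe sets, the variance model, array weights, the replicate block and left-out arrays. Il2rg, Lyz2 and some marker genes are not analysed here, and 1 list of pathway genes is not reported here. Other steps used Python 3.11.15, pandas 2.3.3 and, for figures, matplotlib 3.10.9.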

Additional observations from a re-analysis of the deposited data

Results flagged for a closer look

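Of 58 groups of 4 arrays, a hepcidin and a PBS group for each gene named from the members and lists, 5 had an array far from the other 3 by Dixon's criterion at 95%, which chance alone meets in about 1 of 20 groups. For Socs4 this was hepcidin array 1, at 8.03 against 7.60 to 7.67 on the others, and the PBS array of that number was high as well. Rbx1, a ring protein gene of Cullin ligases, was low on PBS array 1, at 5.86 against 6.58 to 6.63. Ifngr2 was high on hepcidin array 3, at 10.4 against 10.2 to 10.3. Nfkbiz was low on hepcidin array 2, at 7.87 against 8.49 to 8.60, and on PBS array 3, at 7.07 against 7.15 to 7.16.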

How the results depend on the processing

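Pim1, Socs3 and Socs2 stayed above 0 and Socs6 below 0 under each alternative that kept them, and no member passed an adjusted p of 0.05 under any. Pim1 lay between 0.36 and 0.51, Socs3 between 0.26 and 0.44, Socs2 between 0.07 and 0.15 and Socs6 between -0.18 and -0.06 on the log2 scale. The smallest adjusted p, 0.516 for Pim1 and 0.681 for Socs3, came with the number as a random replicate block. The filter at a mean of 6 kept 6 members, 3 of them higher, and left out Socs1, Socs2, Socs3 and Cish, and the filter at the median left out Socs2 and Cish. Genes past the threshold numbered 3 with the filter at 6, 1 with the replicate block, 5 with the random block and 1 without both arrays numbered 1 with the block, and 0 to 2 without single arrays (2 without hepcidin array 2). Fewer genes were tested under the filter; otherwise the cause was not tested. The members higher numbered 3 to 7 without single arrays, 3 without PBS array 2.

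Members near 0 turned sign. Socs4 was at 0.0027 with median centring and 0.0018 with array weights. Pim3 was at -0.016 with renewed quantile normalization, -0.0095 with cyclic loess, -0.0067 with array weights and -0.013 without both arrays numbered 1, with or without the block. Cish was at 0.036 without both. Without single arrays Socs1 ran from -0.15 to 0.052, above 0 without PBS array 3 or hepcidin array 4, and Socs4 from -0.11 to 0.092, above 0 without PBS array 1 or hepcidin array 2, 3 or 4. Socs5 ran from -0.11 to 0.017 (above 0 without PBS array 3), Socs7 from -0.064 to 0.055 (below 0 without PBS array 2 or hepcidin array 3), Cish from -0.22 to 0.017 (above 0 without PBS array 1 or 4) and Pim3 from -0.017 to 0.027 (below 0 without array 1 or 2 of either group or PBS array 4). The members' median lay between -0.029 and 0.022 throughout. The replicate block changed no member's call. The number of arrays limits the precision: among the 8 members whose 95% intervals include a ratio of 1, the limits reach from 0.757 for Cish to 1.23 for Socs2. Both lie within the background range, where such an interval does not bound the true ratio. For the other 6 the limits reach from 0.788 for Socs6 to 1.21 for Socs4. Among these 6, Socs1 is about as dim as Socs3, so its interval, from 0.809 to 1.19, does not bound the true ratio either.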
